A study of Drosophila melanogaster with 36 samples.

Results

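The K-box seed family of Drosophila microRNAs comprises miR-2a, miR-2b, miR-2c, miR-13a, miR-13b, miR-6, miR-11 and miR-308, whose 3p strands share one seed, the stretch of bases 2 to 8 that a microRNA uses to find its targets. The 8 strands were chosen by name and not by their values, although earlier results of these data were known. miR-2a-3p and miR-2c-3p were counted together as miR-2ac-3p, so the 8 strands made up 7 entries of the 310 fly miRNA entries in the count tables. A further entry, miR-2a-2/2c, names no strand and was not counted as a member. All 7 averaged above 5 RPM, reads scaled to 1000000 miRNA reads of a library, in wild-type total small RNA, as did 103 of the 310 entries.

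Small RNAs were sequenced from S2 cells, an established Drosophila cell line, in 10 groups of 3 clonal lines. The dora lines lacked Dora, the hen1/dora lines lacked both Hen1 and Dora, the hen1 lines lacked Hen1 alone, and the wild-type (WT) lines carried neither disruption; the disruptions were made with Cas9 and a guide RNA, with puromycin selection and single-cell sorting. Libraries came from Ago1-bound RNA (Ago1-IP; dora and WT lines), from periodate-treated RNA (dora and WT lines), from Ago2-bound RNA (Ago2-IP; hen1/dora and hen1 lines), and from untreated total small RNA of all 4 genotypes. Each line descends from 1 sorted cell, so differences between lines include those between clones. Ago1 was isolated with a tagged fragment of human TNRC6B, a protein that binds Ago1 but not Ago2 in flies, and Ago2 was isolated through a FLAG tag on Ago2 supplied by transfection. The total small-RNA libraries of the dora and WT lines were taken from an earlier study, so a difference of genotype or library type from other libraries cannot be told apart from when and where these were made.

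Libraries held between 265759 and 11522776 miRNA reads. Libraries of periodate-treated and Ago2-bound RNA were the smallest, and the rare members miR-13a-3p and miR-6-3p were there represented by 10 reads or fewer in each library. The third dora total library was the deepest, and in the first dora periodate-treated library 66.3% of counted reads were size markers or added standards, against 0.224% to 0.500% in the other treated libraries; these reads were left out throughout. The genotype labels fitted miR-7-5p, the classic target of Dora-dependent decay, at 4138 ± 366 RPM in dora cells against 285 ± 10.7 RPM in WT cells (SD, n = 3 each, total small RNA).

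Animal microRNAs repress messenger RNAs through pairing of the seed with sites that mostly lie downstream of the coding sequence. The K box is such a site, first recognized in Notch target genes of the Enhancer of split complex, and members of this family also repress the cell-death genes reaper, hid, grim and sickle in flies. Each microRNA is cut from a hairpin as a duplex of a 5p and a 3p strand, and one strand is kept in an Argonaute protein, usually Ago1 for microRNAs and Ago2 for siRNAs. Hen1 methylates the 3′ ends of RNAs held in Ago2, which makes them resistant to periodate, whereas Dora is the substrate adaptor of a ubiquitin ligase needed when extensively paired targets trigger decay of a microRNA.

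The mature strands were read from the genome at the RefSeq annotation, and 13 of 13 hairpins of the family carried the seed AUCACAG in the 3p strand, the reverse complement of CUGUGAU in a target, whereas 0 of 13 carried it in the 5p strand. A search of 481 annotated mature strands found the seed in 1 other, miR-5-3p, which averaged 3.92 RPM in WT total small RNA. The 3p strands on chromosomes 2L, 3R and X are shown 5′ to 3′ with the seed in capitals, because the members differ only outside it.
miR-2a-3p: uAUCACAGccagcuuugaugagc
miR-2b-3p: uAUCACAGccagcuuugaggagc
miR-2c-3p: uAUCACAGccagcuuugaugggc
miR-13a-3p: uAUCACAGccauuuugaugagu
miR-13b-3p: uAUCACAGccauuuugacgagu
miR-11-3p: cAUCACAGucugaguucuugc
Counted from 1 at the 5′ end and with miR-2a-3p as the reference, miR-2b-3p differed by U19G and miR-2c-3p by A21G. The first of these lay within the 19 bases by which reads were assigned and the second did not, which is why miR-2a-3p and miR-2c-3p could not be separated. miR-13b-3p differed from miR-13a-3p by U18C, so those 2 were told apart by a single base. Of the first 19 bases, 13 matched miR-2a-3p in miR-13a-3p and miR-13b-3p and 12 in miR-11-3p, which among the printed strands alone differed at the first base (U1C).

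Members came from hairpins in several host transcripts (dm6, Release 6). miR-2a-1 (3p strand chr2L:19569902-19569924), miR-2a-2 (chr2L:19569496-19569518) and miR-2b-2 (chr2L:19570189-19570211) lay on the minus strand in an intron of spi, which encodes the epidermal growth factor receptor ligand Spitz. miR-2b-1 (chr2L:8258623-8258645, minus strand) lay in an exon of the kinase gene Btk outside its coding sequence. miR-2c (chr3R:15417761-15417783), miR-13a (chr3R:15417548-15417569) and miR-13b-1 (chr3R:15417412-15417433) shared an exon of the noncoding RNA CR45911 on the minus strand, and miR-13b-2 (chrX:9091275-9091296, plus strand) was in an intron of CCT2, a chaperonin subunit gene. miR-11 (chr3R:21622504-21622524, minus strand) was in an intron of E2f1, a cell-cycle transcription factor gene. miR-308 was in an intron of the ribosomal protein gene RpS23, and the 3 copies of miR-6 were in an exon of the noncoding RNA CR44504.

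The members spanned more than 3 orders of magnitude in WT total small RNA. miR-2ac-3p was read at 51980, 51488 and 59283 RPM and ranked 4 of 310 entries by mean, followed within the family by dme-miR-2b-3p at 43123, 46893 and 47178 RPM. These 2 did not overlap. dme-miR-11-3p (27223, 27373 and 29217 RPM) and dme-miR-13b-3p (22348, 27784 and 23955 RPM) came next and overlapped each other. dme-miR-308-3p was intermediate at 1007, 813 and 906 RPM. miR-6-3p, at 20.9, 15.7 and 25.7 RPM, did not overlap miR-13a-3p, at 6.46, 13.3 and 12.5 RPM, but these were 33 to 42 reads against 13 to 28 reads per library.

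**Figure D1:**
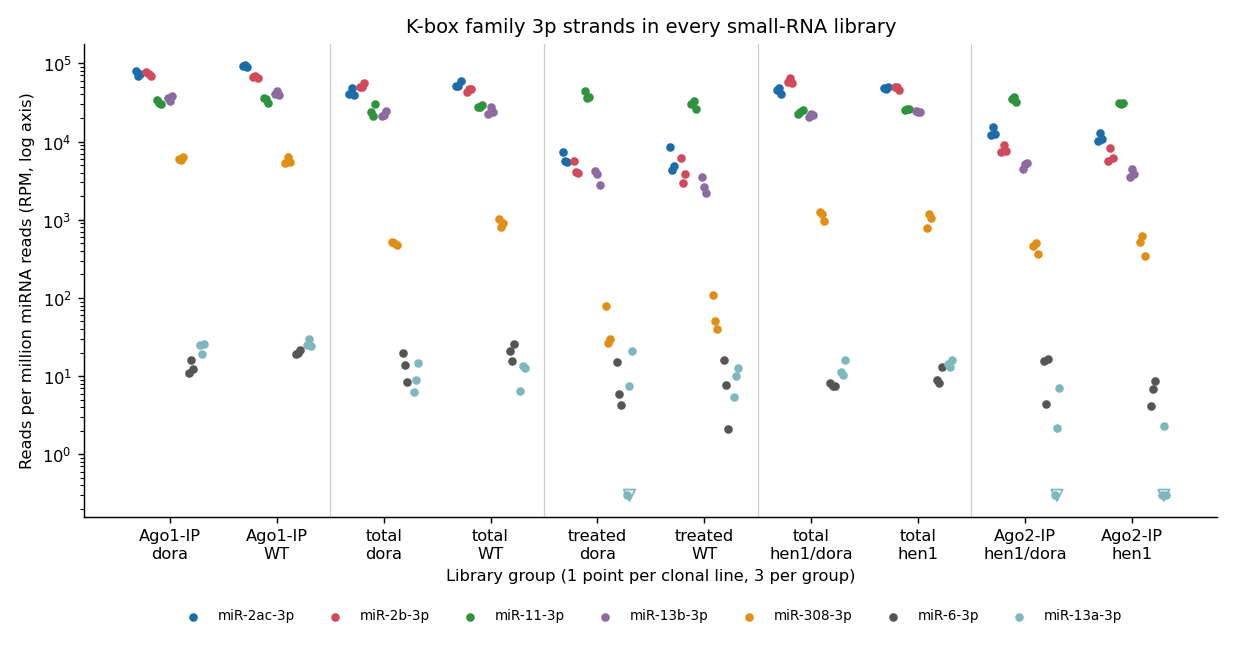
RPM of the 7 family entries (log axis) in the 10 small-RNA groups, 1 point per clonal line; triangles mark members with no read in at least 1 library, drawn at the bottom of the axis. miR-11-3p stayed between 20917 and 44868 RPM in all groups, whereas miR-2ac-3p, miR-2b-3p, miR-13b-3p and miR-308-3p were lowest in periodate-treated or Ago2-bound RNA and highest in Ago1-bound RNA.

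The family made up a larger share of miRNA reads in Ago1-bound RNA and a smaller one in periodate-resistant and Ago2-bound RNA than in total small RNA. In WT cells the summed family took 24.0 ± 0.864% of Ago1-bound miRNA reads and 4.27 ± 0.592% of periodate-treated reads, against 15.4 ± 0.747% of total reads (SD, n = 3 each). In dora cells it took 22.1 ± 1.15% of Ago1-bound and 5.36 ± 0.736% of treated reads, against 14.2 ± 0.748% of total reads. Ago2-IP gave 6.13 ± 0.531% in hen1/dora cells, against 15.1 ± 0.858% of total reads, and 5.30 ± 0.273% in hen1 cells, against 14.8 ± 0.106% of total reads. None of these 6 pairs overlapped, and each gave p = 0.1 by a two-sided exact permutation test, the smallest that 3 libraries against 3 allow (0.192 after adjustment over the 96 share tests made).

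Ago1-IP raised most members, and miR-308-3p by the most of all miRNAs tested. miR-308-3p was at 5272, 6298 and 5527 RPM in WT Ago1-IP libraries against 1007, 813 and 906 RPM in WT total libraries. The log2 fold change of 2.65 ± 0.14 (SE; adjusted p = 1.24e-06, edgeR's quasi-likelihood test with Benjamini-Hochberg adjustment) ranked 1 among 97 miRNAs. miR-13a-3p followed at rank 2, with 24.9, 29.8 and 24.6 RPM in Ago1-IP against 6.46, 13.3 and 12.5 RPM in total libraries, a log2 change of 1.30 ± 0.29 (adjusted p = 0.00488). The groups did not overlap for either, as for 66% of the 97 miRNAs.

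The abundant members rose by less in WT Ago1-IP. miR-2ac-3p was at 92818, 93793 and 90338 RPM against 51980, 51488 and 59283 RPM in total libraries (log2 change 0.77 ± 0.09, adjusted p = 0.000111). miR-13b-3p rose by 0.74 ± 0.11 (adjusted p = 0.000598) and miR-2b-3p by 0.54 ± 0.08 (adjusted p = 0.000525) on the log2 scale. miR-11-3p rose by only 0.29 ± 0.09 (adjusted p = 0.0241), and this call was lost when any of 4 libraries was left out (Ago1-IP WT 1 or 2, total WT 1 or 2; adjusted p up to 0.0850). miR-6-3p did not pass the test, at -0.03 ± 0.23 (95% interval -0.56 to 0.51).

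In all, 6 of 7 members were higher in WT Ago1-IP and 0 were lower, where 18.6% of the 97 miRNAs tested were higher and 45.4% lower. With the replicate number as a block, 30 miRNAs in place of 18 were higher, and the same 6 members. Under TMM scaling, which assumes that most miRNAs do not change, the median over all 97 miRNAs was 0.12 in place of -0.23, and the 6 members kept their direction and call. In dora cells 5 of 7 members were higher in Ago1-IP, where 32% of 103 miRNAs were higher, 39.8% were lower and 76.7% had groups that did not overlap. The call of miR-13a-3p there was lost without the third dora Ago1-IP library (adjusted p = 0.0511). miR-308-3p was again at rank 1, with 5893, 5791 and 6351 RPM against 520, 502 and 481 RPM in total libraries (log2 change 3.59 ± 0.11, adjusted p = 2.68e-07). miR-11-3p rose in dora Ago1-IP only when the third dora total library was left out (log2 change 0.51, adjusted p = 0.000881; with all libraries 0.35 ± 0.15, adjusted p = 0.0650).

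Periodate treatment, which leaves RNAs with a methylated 3′ end, separated miR-11-3p from the other abundant members. In WT cells miR-2ac-3p was at 8455, 4322 and 4850 RPM in treated libraries against 51980, 51488 and 59283 RPM in total libraries, a log2 change of -3.21 ± 0.28 (adjusted p = 1.87e-05). miR-2b-3p (-3.40 ± 0.29), miR-13b-3p (-3.14 ± 0.22) and miR-308-3p (-3.80 ± 0.38) fell as much, with no overlap between groups (adjusted p at most 4.33e-05, edgeR). The 4 that fell are set against 36.8% of 95 miRNAs that were lower and 85.3% whose groups did not overlap. miR-308-3p was then represented by 19 to 40 reads a library.

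miR-11-3p was at 30200, 32839 and 25722 RPM in treated WT libraries against 27223, 27373 and 29217 RPM in total WT libraries. The groups overlapped, and the log2 change of 0.08 ± 0.15 (95% interval -0.26 to 0.43; adjusted p = 0.620, edgeR) lay near the median of all 95 miRNAs, 0.24. With TMM scaling the same value was -0.60 (adjusted p = 0.0166) and the median -0.46, so that the direction for miR-11-3p depends on the scaling, whereas the fall of the other 4 does not. miR-13a-3p changed by -0.16 ± 0.44, with 2 to 6 reads a library in treated RNA and a 95% interval of -1.19 to 0.87, and miR-6-3p, with 1 to 6 reads, was removed by the filter on variable miRNAs.

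In dora cells the same 4 members fell upon treatment, by -2.64 ± 0.19 to -3.61 ± 0.38 on the log2 scale, and 40.9% of 93 miRNAs were lower, with 90.3% having groups that did not overlap. miR-11-3p was at 44868, 36051 and 36826 RPM in treated dora libraries against 23654, 20917 and 30212 RPM in total dora libraries, which did not overlap. It rose by 0.65 ± 0.18 (adjusted p = 0.00714, edgeR; all miRNA reads as library size), but by 0.08 (adjusted p = 0.724) with TMM scaling and 0.37 (adjusted p = 0.201) with DESeq2, and 47.3% of miRNAs were higher.

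Ago2-IP in the hen1 lines, which does not rely on methylation, also separated miR-11-3p from the same 4 members, of which miR-308-3p now fell the least. In hen1 cells miR-2ac-3p was at 10155, 12895 and 10720 RPM in Ago2-IP against 48745, 47308 and 50066 RPM in total libraries (log2 change -2.11 ± 0.12, adjusted p = 5.45e-08). The log2 change was -2.84 ± 0.15 for miR-2b-3p (adjusted p = 3.18e-08), -2.62 ± 0.12 for miR-13b-3p (adjusted p = 1.46e-08) and -1.01 ± 0.24 for miR-308-3p (adjusted p = 0.00289). In hen1/dora cells the same 4 fell, miR-2b-3p the most (-2.90 ± 0.13, adjusted p = 1.69e-09). Among all miRNAs tested 31.5% of 89 were lower in hen1 cells and 31.9% of 91 in hen1/dora cells.

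miR-11-3p was at 30960, 29884 and 30875 RPM in hen1 Ago2-IP against 25613, 26367 and 26244 RPM in hen1 total libraries, which did not overlap, as for 89.9% of the miRNAs tested. The log2 change was 0.23 ± 0.09 (adjusted p = 0.0383, edgeR), below the median of all 89 miRNAs, 1.24, and it turned to -1.14 with TMM scaling and -0.98 with DESeq2, where the medians were -0.13 and 0.03. Leaving out any of the 6 libraries but 1 of Ago2-IP raised the adjusted p to between 0.0685 and 0.131. The change was 0.53 ± 0.11 in hen1/dora cells (adjusted p = 0.000830), where the median was 0.61; it was -0.30 with TMM scaling and -0.07 with DESeq2. By reads, 57.3% and 54.9% of all miRNAs tested in hen1 and hen1/dora cells were higher. miR-13a-3p had 0, 1 and 0 reads in hen1 Ago2-IP and 0, 1 and 3 reads in hen1/dora Ago2-IP, too variable to pass the filter; without that filter it was called lower in both (adjusted p = 0.00115 and 0.0306, edgeR). miR-6-3p had 2 to 8 reads in these 6 libraries. In hen1 cells miR-6-3p did not pass the test (-0.66 ± 0.43), but was called lower with TMM scaling (-2.02) and DESeq2 (-1.84).

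As a share of family reads, which does not depend on scaling between libraries, miR-11-3p took 69.7 ± 7.23% in treated WT libraries and 14.2 ± 0.657% in Ago1-IP, against 18.2 ± 0.476% in total libraries (SD, n = 3 each). In dora cells it took 73.3 ± 1.43% of treated and 14.4 ± 0.349% of Ago1-bound family reads, against 17.5 ± 2.63% of total. In Ago2-IP it took 56.6 ± 2.07% against 15.9 ± 1.46% of total in hen1/dora cells, and 57.9 ± 4.00% against 17.6 ± 0.375% of total in hen1 cells. The groups of each of these pairs did not overlap (exact permutation p = 0.1 each, adjusted 0.192).

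The 5p strands of the same hairpins went the other way. The count tables held 13 of these strands, 7 of them above 5 RPM in WT total small RNA, and 7 of 7 tested were lower in Ago1-IP in WT cells, by -1.09 to -5.83 on the log2 scale, and also in dora cells, where 45.4% and 39.8% of all miRNAs tested in WT and dora cells were lower. In WT cells 6 of 7 were higher after periodate treatment, where 45.3% of miRNAs tested were, and in hen1 cells 7 of 7 were higher in Ago2-IP, where 57.3% of 89 were. The strands from the 3 neighbouring hairpins in spi are shown 5′ to 3′, with bases 2 to 8 in capitals, because loss of Dora is also compared for them and none shares the seed of its 3p partner.
miR-2a-1-5p: cUCUCAAAgugguugugaaaug
miR-2a-2-5p: cCUCAUCAagugguugugaua
miR-2b-2-5p: uUCUUCAAagugguugugaaaug
miR-2a-2-5p was at 60940, 68636 and 61328 RPM in treated WT libraries against 2967, 3328 and 3574 RPM in total WT libraries (log2 change 4.27 ± 0.17, adjusted p = 5.99e-07, edgeR). It was thus above every family 3p strand in the treated WT libraries. miR-2a-1-5p from the neighbouring hairpin was at 3404, 3730 and 3301 RPM in treated WT libraries. In hen1 Ago2-IP the same pair was closer, with 18701, 21987 and 19185 RPM for miR-2a-2-5p and 9368, 8921 and 10322 RPM for miR-2a-1-5p.

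**Figure D2:**
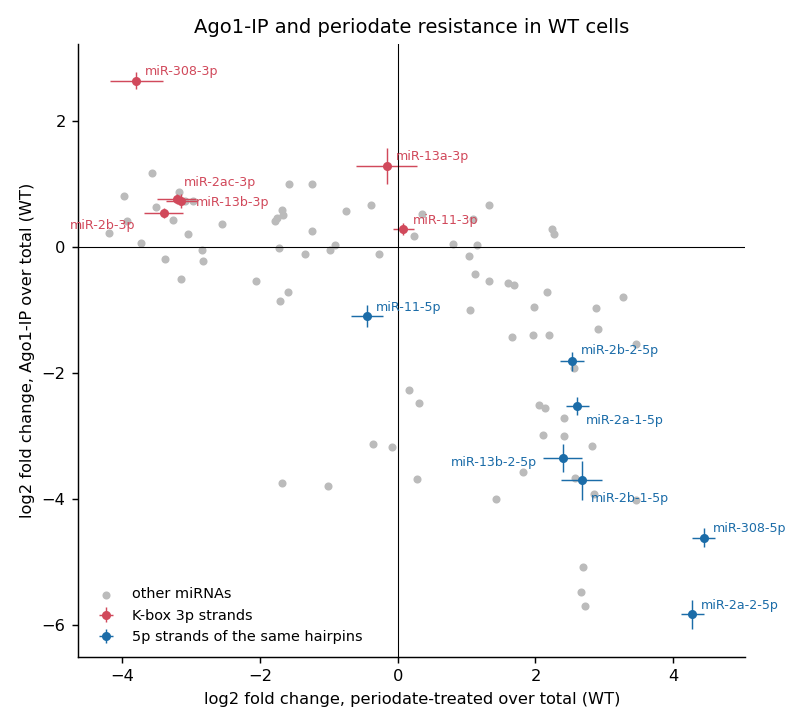
Log2 fold change of each miRNA in Ago1-IP over total (vertical) and in periodate-treated over total (horizontal) small RNA of WT cells, all miRNA reads as library size; bars are standard errors. The family 3p strands plotted lie above 0 on the vertical axis, miR-308-3p at 2.65, and the 5p partners below it, miR-2a-2-5p at -5.83. miR-6-3p (-0.03 in Ago1-IP) is not plotted, because the filter removed it from the periodate comparison. miR-11-3p (0.08) and miR-11-5p (-0.44) lie near 0 on the horizontal axis.

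Among miR-2ac, miR-2b, miR-11, miR-13b and miR-308, for which ratios were taken, miR-308 was the most evenly divided in total small RNA. In WT cells its 3p and 5p strands were nearly equal in total small RNA, at 1007, 813 and 906 RPM for 3p and 699, 746 and 750 RPM for 5p. The ratio of 3p to 5p reads was 190 ± 4.01 in Ago1-IP and 0.00433 ± 0.00284 after periodate treatment, against 1.25 ± 0.179 in total libraries (SD, n = 3 each). miR-308-5p was at 14176, 17553 and 15918 RPM in treated WT libraries, a log2 change of 4.44 ± 0.16 over total (adjusted p = 5.99e-07).

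The other entries compared favored 3p in total small RNA. In treated WT RNA miR-2ac and miR-2b favored 5p, miR-13b was near equal and miR-11 favored 3p. For miR-2ac, miR-2b and miR-13b the 5p reads of all hairpins that give the 3p strand were summed. Their ratios therefore do not describe single hairpins. For miR-2ac the ratio was 589 ± 42.2 in WT Ago1-IP and 0.0887 ± 0.0377 in treated WT libraries, against 14.1 ± 0.951 in total. For miR-2b it was 83.0 ± 3.47 and 0.269 ± 0.113, against 16.5 ± 3.18 in total, and for miR-13b 723 ± 31.1 and 0.977 ± 0.449, against 43.0 ± 5.04 in total. miR-11 kept the 3p strand in excess everywhere, with ratios of 199 ± 14.5 in Ago1-IP and 110 ± 5.63 in treated libraries, against 77.0 ± 12.5 in total. The lowest ratio of miR-11 in any library was 40.9, in hen1 Ago2-IP. Reads of different sequence are not captured equally, so a ratio describes reads and its change between libraries, not molecules.

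**Figure D3:**
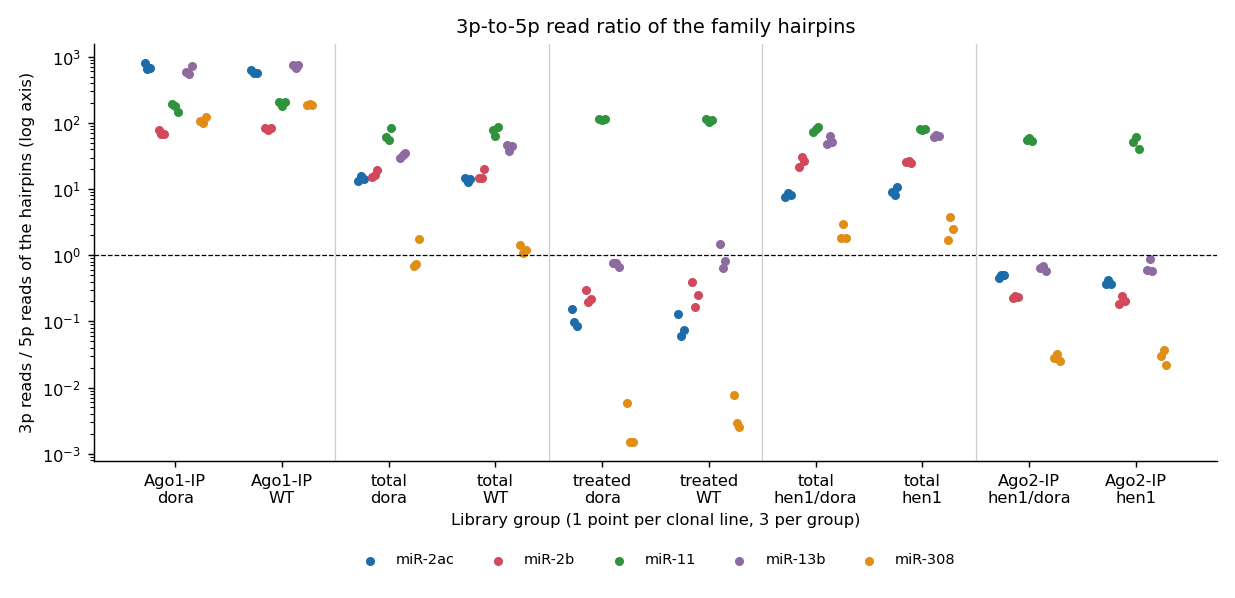
Ratio of 3p to 5p reads (log axis) for miR-2ac, miR-2b, miR-11, miR-13b and miR-308 in the 10 groups, 1 point per clonal line. The dashed line marks equal reads. miR-308 lies near 1 in total WT libraries, at 187 to 195 in WT Ago1-IP and below 0.01 in treated libraries, whereas miR-11 lies above 40 in every library.

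Loss of Dora, the condition under which microRNAs subject to target-directed decay accumulate, raised none of the members past the test in any of the 5 comparisons (edgeR). In total small RNA the log2 changes of the members ran from -0.71 to 0.33, and only miR-308-3p passed the test. It was at 520, 502 and 481 RPM in dora cells against 1007, 813 and 906 RPM in WT cells, with no overlap, a log2 change of -0.71 ± 0.16 (adjusted p = 0.0160, edgeR). This 1 of 7 compares with 30% of 100 miRNAs called and 48% whose groups did not overlap. Its call did not hold without dora line 1 or 2 or WT line 1 or 3, where the adjusted p was 0.0576 to 0.0636. miR-308-5p did not pass the test, at 760, 682 and 269 RPM in dora cells against 699, 746 and 750 RPM in WT cells; the lowest value came from the third dora library.

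miR-308-3p did not pass the test in the other comparisons, though in treated RNA, with 14 to 40 reads a library, its log2 change was also negative (-0.78 ± 0.49). In Ago1-IP it was at 5893, 5791 and 6351 RPM in dora cells against 5272, 6298 and 5527 RPM in WT cells (log2 change 0.02 ± 0.10, 95% interval -0.22 to 0.26). In hen1 lines it was at 1273, 1174 and 974 RPM in hen1/dora total libraries against 781, 1170 and 1048 RPM in hen1 total libraries (0.13 ± 0.20, interval -0.31 to 0.58). The difference between the effect in hen1 cells and that in WT cells was 0.88 ± 0.26 on the log2 scale (adjusted p = 0.0782, edgeR interaction term), and that between Ago1-IP and total was 0.45 ± 0.21 (adjusted p = 0.209), so neither passed. With all miRNA reads as library size they were 1.05 (adjusted p = 0.0256) and 0.94 (adjusted p = 0.00144).

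In Ago1-bound RNA 3 of 7 members fell upon loss of Dora, where 24.2% of 91 miRNAs fell and 31.9% rose. miR-2ac-3p was at 79047, 68850 and 73851 RPM in dora Ago1-IP against 92818, 93793 and 90338 RPM in WT Ago1-IP (log2 change -0.38 ± 0.07, adjusted p = 0.00296, edgeR). miR-6-3p was at 11, 16.3 and 12.3 RPM against 19, 19.9 and 21.7 RPM in WT (-0.67 ± 0.19, adjusted p = 0.0196), from 94 to 176 reads a library. miR-13b-3p was at 36488, 32665 and 37673 RPM against 40402, 44429 and 38871 RPM in WT (-0.27 ± 0.09, adjusted p = 0.0356). The groups did not overlap for these 3, as for 62.6% of the miRNAs tested.

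Of the 3, miR-2ac-3p was called under every alternative tried. The call of miR-13b-3p was lost with all miRNA reads as library size (adjusted p = 0.0720), and without dora line 1 or 2 or WT line 1 or 2 (adjusted p 0.0505 to 0.0840). That of miR-6-3p was lost without dora line 1 or 3 or WT line 3 (adjusted p 0.0663 to 0.0796). miR-2b-3p, which differs from miR-2a-3p by 1 base of the stretch used for counting, was at 77971, 73270 and 68745 RPM in dora Ago1-IP against 66069, 68663 and 65054 RPM in WT Ago1-IP (0.08 ± 0.07, interval -0.09 to 0.25). Its groups did not overlap, in the other direction from miR-2ac-3p, and this difference did not pass the test.

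No member passed the test in periodate-treated or Ago2-bound RNA upon loss of Dora, where 2.02% of 99 and 2% of 100 miRNAs were called. The log2 changes ran from -0.78 ± 0.49 (miR-308-3p) to 0.26 ± 0.19 (miR-11-3p) in treated RNA and from -0.24 ± 0.25 (miR-308-3p) to 0.85 ± 0.56 (miR-6-3p) in Ago2-IP; 0 of 6 members had an unadjusted p under 0.05 in either, and DESeq2 called 0 in both. In total small RNA of hen1 lines 0 of 7 were called, against 18.1% of 94 miRNAs, and 0 by DESeq2, although 1 member had an unadjusted p under 0.05. That member was miR-2b-3p, at 58040, 64458 and 55879 RPM in hen1/dora cells against 49141, 49044 and 45589 RPM in hen1 cells, with no overlap (39.4% of miRNAs had none). Its log2 change of 0.26 ± 0.10 (adjusted p = 0.109) became 0.31 (adjusted p = 0.0285) with all miRNA reads as library size.

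**Figure D4:**
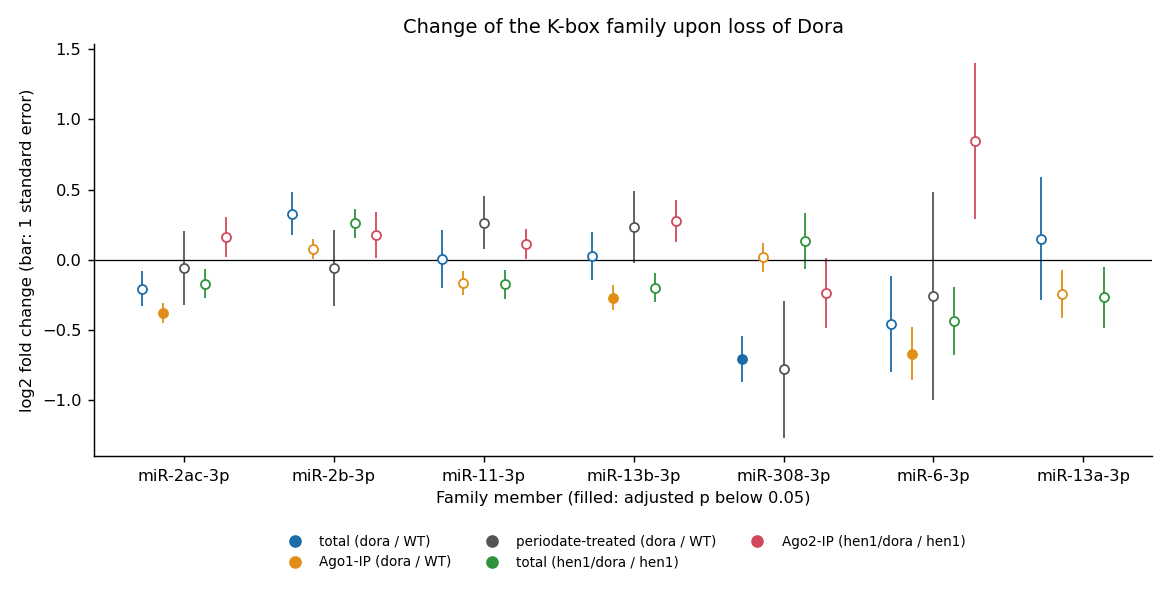
Log2 fold change of each member upon loss of Dora in 5 library types (edgeR, TMM scaling); bars are 1 standard error and filled points have an adjusted p below 0.05. The filled points are miR-308-3p in total small RNA (-0.71) and miR-2ac-3p (-0.38), miR-13b-3p (-0.27) and miR-6-3p (-0.67) in Ago1-IP. No point above 0 is filled.

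In total and Ago1-bound RNA, lines without Dora had a larger share of miR-2b-3p in the family and, on average, a smaller share of miR-2ac-3p. With 3 lines against 3 these share tests cannot reach a p below 0.1. miR-2b-3p took 36.7, 35.1 and 36.9% of family reads in dora total libraries against 29.6, 30.4 and 29.4% in WT total libraries. In Ago1-IP it took 33.4, 34.6 and 31.7% in dora cells against 27.5, 27.6 and 28.1% in WT cells. In the hen1 lines it took 39.2, 40.1 and 38.6% in hen1/dora total libraries against 33.0, 33.2 and 31.1% in hen1 total libraries. The groups did not overlap in any of these 3 comparisons. The differences were 6.45, 5.49 and 6.87 percentage points (exact permutation p = 0.1 each, adjusted 0.192). Tests of the summed family and of miR-11-3p between library types gave the same p, so such a separation was not particular to these shares. Other members also separated upon loss of Dora. miR-308-3p took 0.321 to 0.385% of family reads in dora against 0.527 to 0.691% in WT total libraries. miR-13b-3p took 13.99 to 15.18% in hen1/dora against 16.18 to 16.47% in hen1 total libraries. Both overlapped in the remaining comparisons of total and Ago1-bound RNA. How many of all share tests separated is not given here.

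The share of miR-2ac-3p was lower on average. It was 30.0 ± 3.94% in dora against 35.3 ± 1.81% in WT total libraries, which overlapped (exact permutation p = 0.2, adjusted 0.331). In Ago1-IP it averaged 33.5 ± 0.798% in dora against 38.5 ± 0.672% in WT cells, and in total libraries 29.6 ± 1.49% in hen1/dora against 33.0 ± 1.08% in hen1 cells (SD, n = 3; no overlap, exact permutation p = 0.1 each, adjusted 0.192). Groups overlapped in RNA where these strands are depleted. miR-2b-3p took 8.43 ± 0.462% of family reads in treated dora libraries against 10.1 ± 2.92% in treated WT libraries, and 12.9 ± 0.570% in hen1/dora against 12.6 ± 1.83% in hen1 Ago2-IP.

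**Figure D5:**
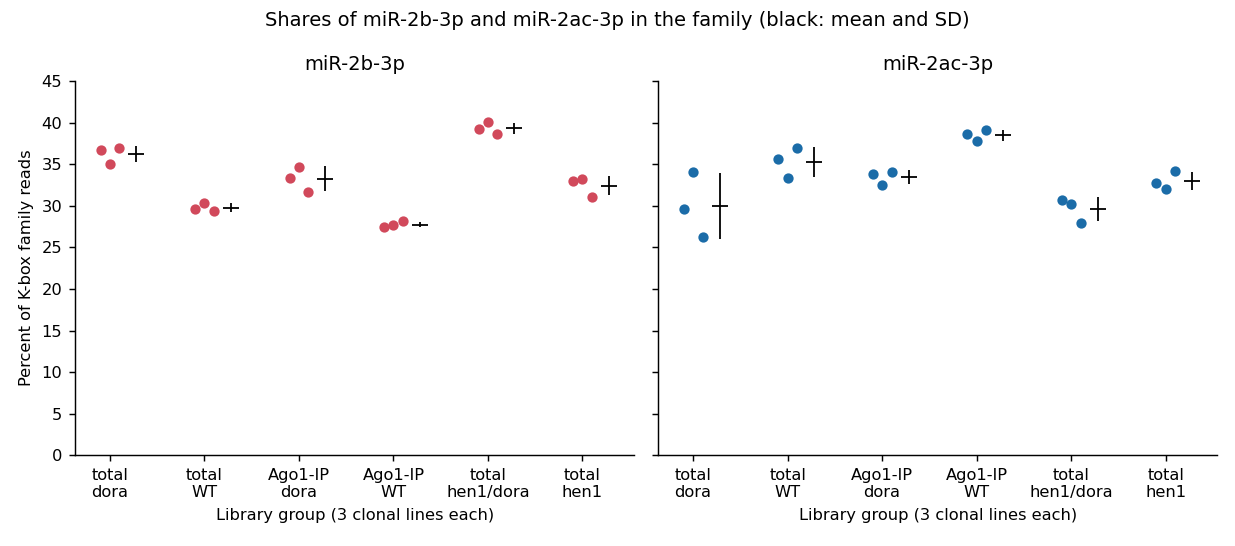
Percent of K-box family reads that were miR-2b-3p (left) and miR-2ac-3p (right), 1 point per clonal line, with the mean and SD in black. For miR-2b-3p every dora or hen1/dora library of total or Ago1-bound RNA (31.7 to 40.1%) lies above its own control libraries; for miR-2ac-3p the total dora and WT libraries overlap.

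Among the 5p strands loss of Dora gave 3 calls of 6 tested in Ago1-IP, a share like that of all 91 miRNAs (31.9% higher and 24.2% lower). miR-2b-2-5p rose (log2 change 0.30 ± 0.10, adjusted p = 0.0419, edgeR) and miR-2a-1-5p from the adjacent hairpin fell (-0.88 ± 0.11, adjusted p = 0.000480). For miR-2a-1-5p the effect in Ago1-IP also differed from that in total small RNA (-1.13 ± 0.21, adjusted p = 0.00178, edgeR interaction term), the one 5p strand for which it did. miR-308-5p rose by 0.83 ± 0.13 (adjusted p = 0.00122), from 52.5 to 58.2 RPM in dora Ago1-IP against 28.2 to 32.3 RPM in WT Ago1-IP, so the 3p to 5p ratio of miR-308 was 109 ± 11 in dora against 190 ± 4.01 in WT cells. No 5p strand passed the test in total small RNA of either background, in treated RNA or in Ago2-IP upon loss of Dora, although 2 of 7 had an unadjusted p under 0.05 in Ago2-IP. The entry miR-2a-2/2c, which names no strand, fell in Ago1-IP (log2 change -0.51 ± 0.18, adjusted p = 0.0419, edgeR). It is counted neither among the members nor among the 5p strands.

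No member passed the test of whether library type or background altered the effect of losing Dora. For the difference between Ago1-IP and total, 0 of 7 members were called, against 9.47% of 95 miRNAs, 3 had an unadjusted p under 0.05, and DESeq2 called 1 (miR-308-3p, 0.59, adjusted p = 0.0243). Without dora total line 1 or 3, or WT total line 2, 3 members (miR-2ac-3p, miR-2b-3p and miR-13b-3p) were called, all with a lower effect in Ago1-IP; with all miRNA reads as library size miR-2ac-3p was at 0.03 in place of -0.45. For the difference between treated and total, 0 of 5 were called, against 12.4% of 89, 3 had an unadjusted p under 0.05, and DESeq2 called 0. Without the first treated WT line 4 were called, all with a higher effect in treated RNA, led by miR-2ac-3p (1.24) and miR-13b-3p (1.15). For the difference between hen1 and WT backgrounds, 0 of 7 were called, against 3.16% of 95, DESeq2 called 0, and only miR-308-3p had an unadjusted p under 0.05.

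Loss of Hen1 in total small RNA was compared between libraries made at different times, so genotype and batch cannot be told apart. Relative to the TMM scaling miR-2b-3p (log2 change 0.41 ± 0.08, adjusted p = 0.00845, edgeR) and miR-13b-3p (0.30 ± 0.10, adjusted p = 0.0441) were higher in hen1 cells, 2 of 7 members where 19.4% of 98 miRNAs were higher; DESeq2 called 5 members, all higher. In RPM the groups of both members overlapped between groups, miR-2b-3p at 49141, 49044 and 45589 RPM in hen1 cells against 43123, 46893 and 47178 RPM in WT cells. With all miRNA reads as library size the median over all miRNAs was -0.41 in place of -0.08, miR-2b-3p was at 0.07 and miR-13b-3p turned to -0.04, miR-2ac-3p to -0.16 and miR-11-3p to -0.10. Under that scaling miR-6-3p alone was called, as lower (-1.03, adjusted p = 0.0189), at 9.06, 8.14 and 13 RPM in hen1 cells against 20.9, 15.7 and 25.7 RPM in WT cells. The call of miR-13b-3p was lost without any of 5 of the 6 libraries, the exception being WT line 2.

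Across the means of the 10 small-RNA groups (log2 of RPM plus 1), the abundant members followed each other. Pearson's r was 0.98 between miR-2ac-3p and miR-2b-3p and 0.99 between each of them and miR-13b-3p, and miR-308-3p followed miR-2ac-3p at 0.91. miR-11-3p ran against them, at -0.41 with miR-2ac-3p and -0.53 with miR-2b-3p. Outside the family, among 96 miRNAs above 5 RPM, the closest to miR-2ac-3p were miR-317-3p (0.99) and miR-306-5p (0.98), and to miR-2b-3p miR-9b-3p (0.98) and miR-317-3p (0.98). miR-13b-3p was closest to miR-1007-3p (0.98) and miR-306-5p (0.97). miR-308-3p was closest to miR-1006-3p (0.96) and miR-1003-3p (0.93). For the rare members the closest were less alike, with miR-276a-3p (0.79) and miR-968-5p (0.735) for miR-13a-3p, and miR-968-5p and miR-281-2-5p (0.82 each) for miR-6-3p. miR-11-3p had the least similar neighbours, miR-281-1-5p (0.68) and miR-190-3p (0.64). These values describe 10 group means that share library types, so they carry no test.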

How the data were processed

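Small RNAs of S2 clonal lines were sequenced in 30 libraries (10 groups of 3 lines); the 6 RNA-seq libraries and the siRNA tables were not used here. The authors trimmed and quality-filtered the reads, matched their first 19 nt to miRNA sequences and merged species alike in that stretch. They deposited the counts of reads per miRNA, without normalization, in 5 tables. One total WT column carried a doubled digit and was read as WT line 2. The Ago2-IP columns bear names that are also titles of hen1 total samples; they were assigned by the table that the labels name, and their numbers were not used for pairing. The software was edgeR 4.0.16, DESeq2 1.42.0 and limma 3.58.1 under R 4.3.3, together with SciPy 1.17.1, pandas 2.3.3, numpy 2.4.6 and matplotlib 3.10.9 under Python 3.11.15. RPM is reads scaled to 1000000 fly miRNA reads. A miRNA entered a test when it averaged more than 5 RPM in the control group and its coefficient of variation was defined and within 1.5 interquartile ranges. The main test was edgeR's quasi-likelihood test, with TMM normalization between genotypes, and with all miRNA reads as library size between library types, where most miRNAs may change. Adjusted p-values (Benjamini-Hochberg, threshold 0.05) cover all miRNAs tested. Shares were compared by two-sided exact permutation tests. Replicates are separate clonal lines, and no 2 libraries of the same group agreed within sampling noise (chi-square per degree of freedom at least 38.3). Libraries of different groups were not compared in this way. WT lines with the same number deviated together between treated and total RNA (correlations 0.38 to 0.68) and between Ago1-bound and total RNA (0.41 to 0.69). For dora lines with the same number these correlations were -0.32 to 0.04 and -0.27 to -0.02. The highest correlations with a line of another number were 0.43 to 0.48 and 0.32 to 0.57 for dora lines. For WT lines they were -0.45 to 0.18 and -0.43 to 0.29. That a number marks a shared culture rests on the values of the WT lines alone, since no source states it. Alternatives were the other scaling, DESeq2, no filter on low or on variable miRNAs, the replicate block, and leaving out each library. The named miRNAs were the members, their 5p partners and, for each member, the 2 miRNAs outside the family most alike over the groups. The members and lists were chosen with earlier results of these data known. The tests on counts were checked on simulated counts, and the permutation test on small constructed groups with a known answer. Mature sequences and positions are from the RefSeq annotation of dm6; those of miR-6 and miR-308 are not reported here.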

Additional observations from a re-analysis of the deposited data

Results flagged for a closer look

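miR-11-3p was the one member whose libraries moved in opposite directions upon loss of Dora in different library types, with no overlap between groups in each. The ratio of mean RPM was 1.327 for dora over WT cells in periodate-treated RNA, where all 3 dora libraries lay above all 3 WT libraries. It was 1.134 for hen1/dora over hen1 cells in Ago2-IP, where all 3 hen1/dora libraries were higher, and 0.9197 for hen1/dora over hen1 cells in total small RNA, where all 3 were lower. The difference between these effects was not tested, and none of the 3 passed edgeR's test on its own. All members and pairs of comparisons were searched for such opposite shifts, but miRNAs outside the family were not. How common these shifts are among all miRNAs was therefore not counted. In hen1 total small RNA alone, 39.4% of 94 miRNAs had groups that did not overlap.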

How the results depend on the processing

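Of 1144 single-member values under an alternative, 994 kept their direction and their side of the threshold, 73 changed sign while called in neither setting, 35 lost a call, 36 gained one and 6 reversed. The 6 that reversed were miR-13b-3p upon loss of Hen1 with all miRNA reads as library size (-0.036 on the log2 scale), and miR-11-3p under TMM scaling in periodate-treated WT (-0.60), hen1 Ago2-IP (-1.14) and hen1/dora Ago2-IP (-0.30), and under DESeq2 in hen1 (-0.98) and hen1/dora (-0.068) Ago2-IP. In each the median of all miRNAs moved down too. The count of called members upon loss of Hen1, 2 of 7, was 1 with all miRNA reads as library size, 5 with DESeq2 and 1 to 3 when a library was left out. With all miRNA reads as library size, 1 member each was called upon loss of Dora in hen1 total small RNA, for the difference between Ago1-IP and total (1 with DESeq2), and for that between hen1 and WT cells. Leaving out 1 library gave 0 to 1 called members upon loss of Dora in total small RNA, 1 to 2 in Ago1-IP, 0 to 3 for the difference between Ago1-IP and total, 0 to 4 for that between treated and total and 0 to 1 for that between hen1 and WT cells. The cause of these changes was not tested. Of 576 share differences with 1 library left out, 551 kept their sign and 25 changed it, all 25 where the groups overlapped with every library in, and each moved by less than the spread between replicates.

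With the replicate number as a block, loss of Dora in total small RNA gave 0 called members (miR-308-3p -0.71, adjusted p = 0.0577, edgeR) and 13 higher and 5 lower of 100 miRNAs, in place of 18 and 12, and loss of Hen1 gave 1 called member. In Ago1-IP upon loss of Dora the block left miR-13b-3p uncalled (adjusted p = 0.101). The lines share only a number in these comparisons. Where numbers paired the WT lines, the block changed no call of a member. The block was not run for the 3 Ago2-IP comparisons.

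Over all miRNAs, loss of Hen1 gave 10 higher and 40 lower of 98 with all miRNA reads as library size, in place of 19 and 18, and Ago1-IP in WT cells gave 35 higher and 39 lower of 97 with TMM scaling, in place of 18 and 44. The split of calls under TMM scaling was 37 higher and 43 lower after periodate treatment in WT cells, in place of 43 and 35, 39 and 45 in dora cells, in place of 44 and 38, 36 and 43 in hen1 Ago2-IP, in place of 51 and 28, and 39 and 42 in hen1/dora Ago2-IP, in place of 50 and 29. Upon loss of Dora, the 0 higher and 2 lower of 99 miRNAs in treated RNA became 1 and 3 with DESeq2, 2 and 3 without the filter on low values, and 0 in all with all miRNA reads as library size or without the filter on variable miRNAs. The 16 and 1 in hen1 total small RNA became 22 and 4 without the low filter and 10 and 1 without the variability filter. The 2 and 0 in Ago2-IP became 4 and 2 with DESeq2, 3 and 3 without the low filter and 1 and 0 without the variability filter. For the difference between hen1 and WT cells, 2 and 1 became 9 and 1 with all miRNA reads as library size and 0 without the variability filter or with the block. Depth limits miR-6-3p and miR-13a-3p, with 0 to 10 reads in treated and Ago2-bound libraries.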
